A study of Mus musculus with 12 samples.

Results

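Of the 25210 genes in a count table of mouse mammary organoids, 10 encode proteoglycans of the matrix or the cell surface and were followed here, found by their gene symbols: the small leucine-rich proteoglycans decorin (Dcn), lumican (Lum), biglycan (Bgn), fibromodulin (Fmod), osteoglycin (Ogn) and Prelp, the large proteoglycan versican (Vcan), and the cell-surface proteoglycans syndecan 1 (Sdc1), syndecan 4 (Sdc4) and glypican 3 (Gpc3). They were listed by name with earlier results of these data known, and all 10 passed the filter on low counts. Organoids are small pieces of tissue grown in a gel, here mammary epithelium from virgin FVB/N females aged 8-11 weeks, embedded in growth-factor reduced Matrigel and kept in minimal medium. CHIR99021 inhibits the kinase GSK3, which otherwise marks β-catenin for destruction, and was given at 1, 1.5 or 3 µM for 7 days. Control organoids received the vehicle DMSO for the same time. There were 3 cultures, each from a different animal and each split over the 4 treatments, so a treatment group holds 3 libraries and every comparison with DMSO uses the same 3 control libraries. No allele or transgene is named for any group. The labels also tag cultures 1, 2 and 3 as med, min and max, without saying what these words refer to.

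A proteoglycan is a core protein that carries long sulphated sugar chains. Small leucine-rich proteoglycans bind collagen and shape its fibrils, and stromal fibroblasts are their best known source in the mammary gland. Versican binds hyaluronan in loose matrix. Syndecans span the membrane and glypicans hang from it by a lipid anchor, and both carry heparan sulphate chains that hold growth factors, WNT proteins among them, at the cell surface. In mammary epithelium, syndecan 1 is known as a surface proteoglycan of the epithelial cells themselves.

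The libraries were bulk polyadenylated RNA of whole organoids and held 10.1 to 24.5 M counts. Levels are given as counts scaled to a common library total by TMM (CPM, counts per 1 M counts). Fold changes come from edgeR's quasi-likelihood test over 15316 genes, with an adjusted p under 0.05 called a change. The main fit uses group means only and leaves out the pairing of libraries by culture. A fit with the culture as a block, which keeps the pairing, is given beside it where it changed a call. The organoids expressed luminal and basal epithelial markers, none of them at 0 in any group. At 3 µM 4575 genes were higher and 4239 lower than in DMSO, and with scaling by library size alone 3395 and 5404, with a median log2 fold change of −0.229 over all genes. From 1.5 to 3 µM the split was 2601 higher and 1943 lower, and by library size alone 1050 and 3860 with a median of −0.276. Markers of other cells were present too, and those of fibroblasts differed between cultures. A sum of 16 fibroblast genes, which holds none of the 10 proteoglycans, was 5364, 13069 and 27785 CPM in cultures 1, 2 and 3 with DMSO. At 3 µM it was 447, 1755 and 5998 CPM. All 10 squamous markers were higher at 3 µM than with DMSO, with a summed level of 69.2 to 90.8 CPM in DMSO and 3149 to 19895 CPM at 3 µM. Culture 3 had the lowest squamous and the highest fibroblast sum at 3 µM.

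The stretch before the RefSeq transcription start (GRCm38.p6) is shown for 1 member that rose at 3 µM, 1 that fell, and 1 whose call depended on how the cultures were modelled. RefSeq promoters were matched by symbol for 8 of the 10 genes. Of the 250 bases before the start, those that lie inside another annotated start of the same gene were left out of the printed runs. Capitals mark CTTTGA, the core motif of the TCF/LEF factors through which β-catenin acts on genes, searched on both strands.
Sdc1 (12:8771146-8771322, plus strand): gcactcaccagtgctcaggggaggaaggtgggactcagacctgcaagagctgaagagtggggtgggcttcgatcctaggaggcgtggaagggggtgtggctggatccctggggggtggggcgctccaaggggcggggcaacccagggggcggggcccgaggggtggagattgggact
Prelp (1:133921415-133921651, minus strand): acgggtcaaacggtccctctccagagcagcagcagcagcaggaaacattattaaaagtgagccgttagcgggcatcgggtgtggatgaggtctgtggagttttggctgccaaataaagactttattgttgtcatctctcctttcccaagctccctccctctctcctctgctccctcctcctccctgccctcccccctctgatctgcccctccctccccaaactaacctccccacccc
Bgn (X:73483351-73483600, plus strand): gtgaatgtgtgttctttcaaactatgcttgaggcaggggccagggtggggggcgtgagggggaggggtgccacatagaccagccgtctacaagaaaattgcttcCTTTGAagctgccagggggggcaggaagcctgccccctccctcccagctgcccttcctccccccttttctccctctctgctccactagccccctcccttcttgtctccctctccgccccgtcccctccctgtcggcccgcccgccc
The single CTTTGA match among the 8 matched promoters lies in that of Bgn and starts 146 bases before the start site. Over 32851 RefSeq promoters of the same length, 13.8% hold this motif. TGANTCA, the AP-1 motif, was found in none of the 8 and in 6.75% of all promoters. TATAAA was found in 1 of the 8, that of Ogn, where matches on both strands overlap, against 12.4% of all promoters. These are matches of letters in a window. The Sdc1 window is 66.0% G and C, the Bgn window 64.4% and the Prelp window 55.6%, against a median of 52.4% over all promoters.

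At 3 µM, Sdc1 rose 4.87-fold, while Prelp fell 113-fold, Fmod fell 26.8-fold, Vcan fell 3.55-fold and Ogn fell to a total of 3 counts in 3 libraries. Those 5 of 10 genes were called, against 57.5% of all genes tested, so the share is near the background. For the same 5 genes the DMSO and 3 µM values did not overlap, and the share of all genes without overlap was not counted. The 4 decreases stand beside 27.7% of all genes called lower and the 1 increase beside 29.9% called higher. By class, 3 of 6 small leucine-rich genes fell with a median log2 fold change of −3.29 over the class, and 1 of 3 cell-surface genes rose with a median of −0.23. The −3.29 lies between Fmod (−4.74) and Bgn (−1.84), with no gene near it. The median of all genes tested was −0.03. With the culture as a block in the fit, 8 of 10 were called at 3 µM, against 68.9% of all genes: Lum, Bgn and Gpc3 joined them as decreases. Because the RNA is from whole organoids, fewer cells of a type and less RNA per cell cannot be told apart. Without the block, the call of Vcan depended on single libraries, as given with its values.

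**Figure D1:**
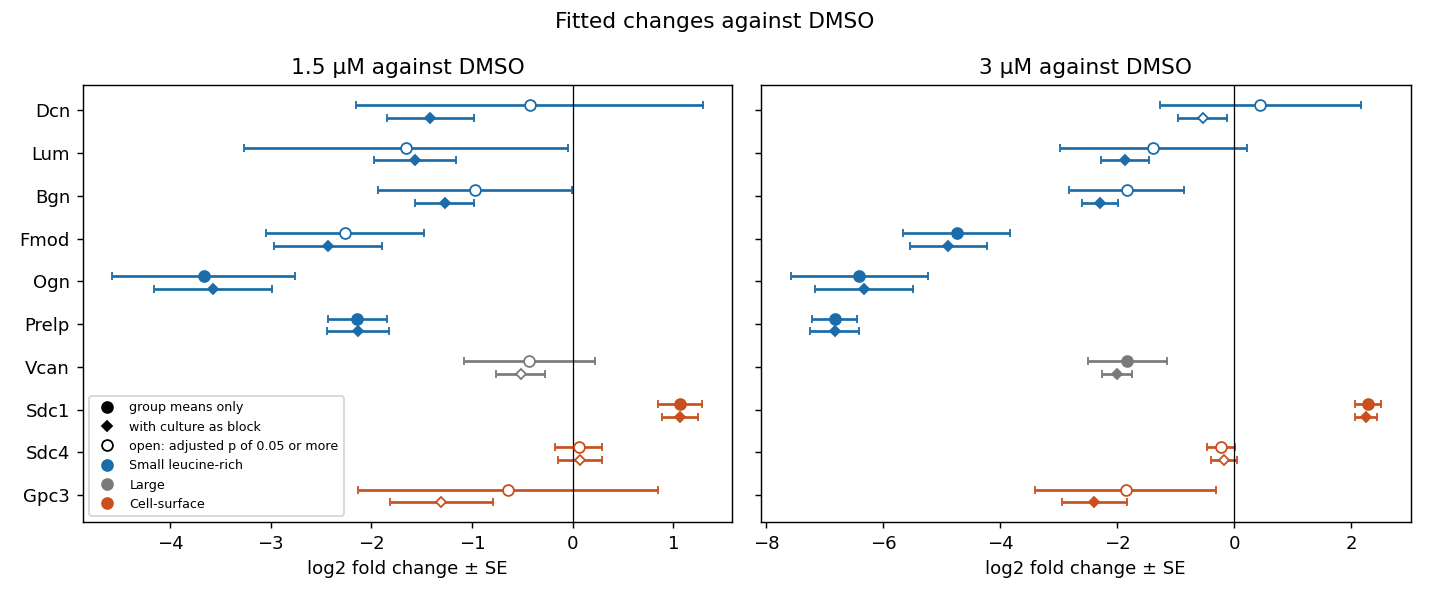
Fitted log2 fold change ± SE of the 10 genes at 1.5 and 3 µM against DMSO. Circles are the fit with group means only and diamonds the fit with the culture as a block, and filled symbols have an adjusted p under 0.05. Prelp, Ogn and Sdc1 gave nearly the same values in both fits, while the bars of Dcn, Lum, Bgn, Gpc3 and Vcan shrank most with the block.

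Prelp, a small leucine-rich proteoglycan that ties basement membranes to the underlying connective tissue, had the largest fitted decrease among the 10 genes, and its level was lower at each higher dose. The counting interval of Ogn's decrease, 33.2 to 477-fold, holds the 113-fold of Prelp, and in culture 3 the changes of Fmod (−8.21) and Ogn (−6.94) went past that of Prelp. It lies on chromosome 1 (133910304-133921414, minus strand, GRCm38). With DMSO it stood at 250.4, 234 and 143 CPM in cultures 1, 2 and 3, and at 1 µM at 93.2, 108 and 82.3 CPM. At 1.5 µM the cultures had 34.2, 38.6 and 69.8 CPM, and at 3 µM 1.73, 2.25 and 1.52 CPM. No value of any group overlapped with DMSO, and neighbouring doses did not overlap either. Its mean was 209 ± 57.8 CPM in DMSO and 1.83 ± 0.375 CPM at 3 µM (SD, n = 3). The log2 fold change was −6.83 at 3 µM (SE 0.381, adjusted p 1.66e-06) and −2.14 at 1.5 µM (SE 0.294, adjusted p 0.00101). At 1 µM it was −1.15 (SE 0.285) with an adjusted p of 0.145, which DESeq2 put at 0.00777 and the fit without culture 3 at 0.0124. The call at 1.5 µM ended without culture 2 (adjusted p 0.0690). Culture 3 began with the least Prelp and lost the least at 1.5 µM, with a within-culture log2 change of −1.04 against −2.87 and −2.60. At 3 µM the 3 cultures ended close together, at −7.09, −6.63 and −6.46. A gene on the opposite strand, Gm15851, overlaps Prelp, and whether counting used the strand is not given in the sources used here.

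Fmod, which binds collagen and helps order its fibrils, lies on the same chromosome at 134037254-134048277 (plus strand), 115.8 kb from Prelp. With DMSO it had 18.4, 39.6 and 54 CPM in cultures 1, 2 and 3, and at 1 µM 18.7, 59.3 and 28.1 CPM. At 1.5 µM the values were 5.09, 14.1 and 3.94 CPM, and at 3 µM 1.57, 2.5 and 0.069 CPM. The 1 µM values overlapped with DMSO, while those at 1.5 and 3 µM lay below every DMSO value. Mean Fmod was 37.3 ± 17.9 CPM with DMSO and 1.38 ± 1.23 CPM at 3 µM (SD, n = 3). The log2 fold change at 3 µM was −4.74 (SE 0.912, adjusted p 0.00148), with culture 3 lowest at 0.0690 CPM, which is 1 count. Without replicate 2 at 3 µM it was −5.56, without culture 2 −5.49 and without culture 3 −3.80. Fmod at 1.5 µM gave −2.26 (SE 0.784) with an adjusted p of 0.0562, and with the block −2.43 with an adjusted p of 0.00582. DESeq2 called it at 1.5 µM as well (adjusted p 0.0149), and so did the fits without replicate 2 at 1.5 µM (0.0463), replicate 3 at 3 µM (0.0223) or DMSO replicate 1 (0.0451).

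Ogn, also called mimecan, is a collagen-associated member of the same family and had the lowest level per kb of the 10 genes. It lies at 13:49608071-49624500 (plus strand), inside a region that Cenpp covers on the opposite strand. In DMSO it had 2.67, 3.25 and 13.8 CPM in cultures 1, 2 and 3, and at 1 µM 0.863, 5.17 and 6.08 CPM. At 1.5 µM Ogn had 0.318, 0.423 and 0.811 CPM. At 3 µM 2, 1 and 0 counts were left, against 60, 32 and 257 counts in DMSO. The DMSO and 1 µM values overlapped, and the 1.5 and 3 µM values lay below both. Over the groups, Ogn took a 97.8-fold smaller share of counts at 3 µM than in DMSO, with a 95% exact interval of 33.2 to 477 that covers counting error only. It fell at 1.5 µM by 3.66 on the log2 scale (SE 0.910, adjusted p 0.0149), and its adjusted p at 3 µM was 0.00109. The fitted log2 fold change at 3 µM was −6.41, and −7.38 without replicate 1 at 3 µM, −5.28 without DMSO replicate 3, −7.74 without culture 1 and −4.70 without culture 3. The 1.5 µM call ended without replicate 1 (adjusted p 0.0616) or replicate 2 (0.0595) at 1.5 µM, without DMSO replicate 3 (0.0503, at −2.54), and without culture 2 (0.190).

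Bgn, which binds collagen and also acts as a matrix signal to immune receptors, had the most counts of the small leucine-rich genes, and all its cultures were lower at 3 µM than in their own DMSO. It lies on the X chromosome at 73483602-73495933 (plus strand). With DMSO it had 893, 2060.3 and 3296 CPM in cultures 1, 2 and 3, with 709, 1891 and 3237 CPM at 1 µM. At 1.5 µM Bgn had 282, 755 and 2146 CPM, and at 3 µM 96.1, 405 and 1247 CPM. The spread between cultures was as wide as the difference between doses: culture 3 at 3 µM still exceeded culture 1 in DMSO. Within cultures the log2 change at 3 µM was −3.21, −2.35 and −1.40. Without a culture term the log2 fold change was −1.84 (SE 0.984, adjusted p 0.133), and with the block −2.29 (adjusted p 0.000152). At 1.5 µM the values were −0.97 (SE 0.963, adjusted p 0.480) and, with the block, −1.27 (adjusted p 0.00679). Without the block, Bgn was called at 3 µM once replicate 3 at 3 µM (adjusted p 0.0364) or culture 3 (0.0453) was left out.

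Lum and Dcn are neighbours on chromosome 10, at 97565501-97572703 and 97479500-97518162 (both plus strand), 47.3 kb apart. Lumican regulates collagen fibril spacing, and decorin does so too and also binds TGF-β. Lum had 13.6, 132 and 412 CPM in cultures 1, 2 and 3 with DMSO and 20.8, 156 and 346 CPM at 1 µM. At 1.5 µM Lum had 7.07, 33 and 137 CPM, and at 3 µM 2.82, 17.3 and 193 CPM. Every culture had less Lum at 1.5 and 3 µM than in its own DMSO, and the groups overlapped because culture 3 at 3 µM exceeded cultures 1 and 2 in DMSO. Its log2 fold change at 3 µM was −1.39 (SE 1.60, adjusted p 0.476), and with the block −1.87 (adjusted p 0.00331). Lum at 1.5 µM gave −1.66 (SE 1.61, adjusted p 0.471), and with the block −1.57 (adjusted p 0.0125).

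Dcn went from 38.7, 219 and 625 CPM in cultures 1, 2 and 3 with DMSO to 26.2, 176 and 633 CPM at 1 µM. At 1.5 µM Dcn had 9.49, 50.3 and 596 CPM, and at 3 µM 13.9, 115 and 1071 CPM. In all 3 cultures Dcn was higher at 3 µM than at 1.5 µM, and in culture 3 it was also above its own DMSO. The other 5 small leucine-rich genes were below their own DMSO at 3 µM in every culture. The within-culture log2 changes of Dcn at 3 µM were −1.47, −0.93 and 0.78. Its fitted change at 3 µM was 0.44 (SE 1.72, 95% interval −3.38 to 4.27, adjusted p 0.838), and with the block −0.54 (adjusted p 0.280). In fits with no block it was −2.20 without replicate 3 at 3 µM, −0.08 without DMSO replicate 1 and −0.99 without culture 3. Its sign in the fit with no block therefore turned with single libraries. Dcn at 1.5 µM gave −0.43 (SE 1.72, adjusted p 0.876), and with the block −1.41 (adjusted p 0.0255). Between 1.5 and 3 µM the difference was 0.87 (SE 1.73, adjusted p 0.730), and a difference in dose slope between cultures was not called for Dcn (adjusted p 0.724).

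**Figure D2:**
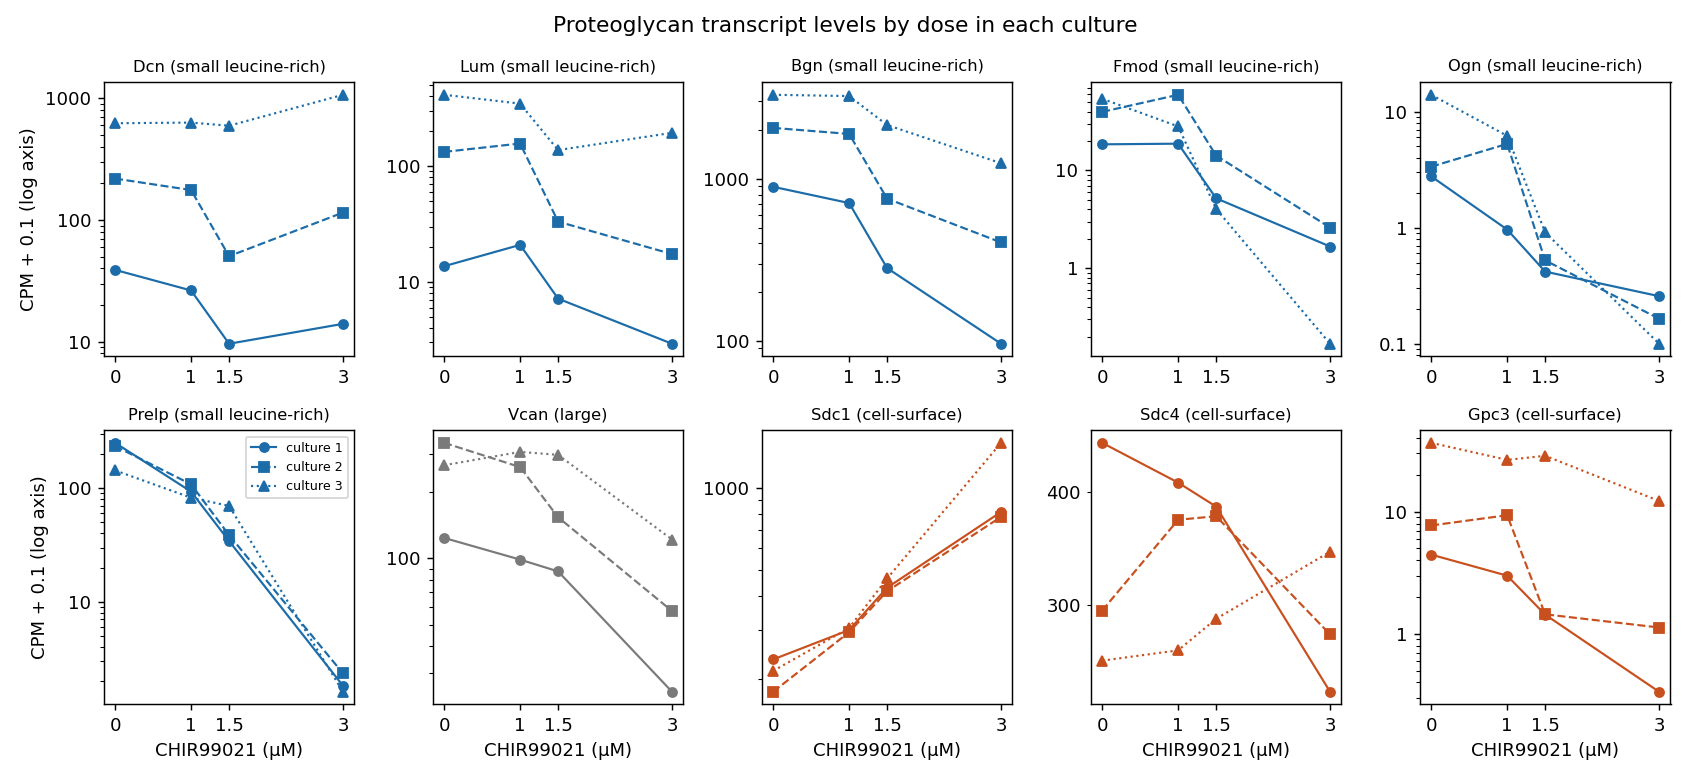
Level of each gene by CHIR99021 dose (µM) in each of the 3 cultures, as CPM + 0.1 on a log axis that differs between panels. Lines join the 4 treatments of a culture. Prelp and Sdc1 lines run close together, while those of Dcn, Lum, Bgn and Gpc3 keep the order culture 3, 2, 1 at nearly every dose.

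Vcan, the hyaluronan-binding proteoglycan of loose matrix, fell at 3 µM. It lies at 13:89655312-89742509 (minus strand), where Gm4117 and Gm16318 overlap on the opposite strand. In DMSO it had 124, 336 and 266 CPM in cultures 1, 2 and 3, and at 1 µM 98.7, 261 and 305 CPM. At 1.5 µM Vcan had 87.2, 154 and 296 CPM, and at 3 µM 24.6, 57.5 and 122 CPM. The highest value at 3 µM lay just below the lowest in DMSO, and the 1 and 1.5 µM values overlapped with DMSO. Mean Vcan was 242 ± 108 CPM in DMSO and 68 ± 49.5 CPM at 3 µM (SD, n = 3). The log2 fold change at 3 µM was −1.83 (SE 0.672, adjusted p 0.0386), and at 1.5 µM −0.43 (SE 0.651, adjusted p 0.651). The 3 µM call ended in 6 of 12 fits that left out 1 library: replicate 1 (adjusted p 0.103) or 2 (0.107) at 3 µM, DMSO replicate 2 (0.109) or 3 (0.0757), replicate 2 at 1.5 µM (0.0518) and replicate 2 at 1 µM (0.0516). It also ended without culture 2 (0.322) and with no filter on low counts (0.0718). The change was −2.58 without replicate 3 at 3 µM and −2.48 without culture 3. None of these fits held the pairing by culture, and dropping 1 library left the cultures uneven between groups. Within cultures the log2 change at 3 µM was −2.33, −2.54 and −1.12. With the block the change was −2.0 (adjusted p 0.000128).

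Sdc1, the syndecan of epithelial surfaces, was the 1 gene of the 10 that rose, and it did so in all 3 cultures with little spread between them up to 1.5 µM. It lies at 12:8771323-8793715 (plus strand). Sdc1 had 235, 179 and 213 CPM in cultures 1, 2 and 3 with DMSO and 301, 296 and 306 CPM at 1 µM. At 1.5 µM Sdc1 had 430.0, 417 and 465 CPM, and at 3 µM 814, 781 and 1457 CPM. The 4 groups did not overlap, and culture 3 was highest at 3 µM. Mean Sdc1 was 209 ± 28.3 CPM in DMSO and 1017 ± 381 CPM at 3 µM (SD, n = 3). The log2 fold change was 2.28 at 3 µM (SE 0.222, 95% interval 1.79 to 2.78, adjusted p 2.19e-05) and 1.07 at 1.5 µM (SE 0.214, adjusted p 0.00557). At 1 µM it was 0.53 (SE 0.212, adjusted p 0.369). The 1.5 µM call ended without culture 1 (adjusted p 0.0536) or culture 2 (0.105).

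Sdc4, a syndecan of focal adhesions, was not called in any comparison between groups, and its cultures differed in direction. It lies at 2:164424247-164443887 (minus strand). Sdc4 had 453, 296 and 260.5 CPM in cultures 1, 2 and 3 with DMSO, and 409, 372 and 267 CPM at 1 µM. At 1.5 µM Sdc4 had 385, 376 and 289.6 CPM, and at 3 µM 241, 278 and 343 CPM. Culture 1 was highest in DMSO and lowest at 3 µM, culture 3 the reverse, and the groups overlapped at every dose. The log2 fold change was −0.23 at 3 µM (SE 0.236, 95% interval −0.75 to 0.30, adjusted p 0.429) and 0.06 at 1.5 µM (SE 0.236, 95% interval −0.47 to 0.58, adjusted p 0.878). The sign at 3 µM turned without DMSO replicate 1, at 0.05.

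Gpc3, a glypican known as a regulator of growth-factor and WNT signals, was low and uneven between cultures. It lies on the X chromosome at 52272426-52613950 (minus strand), where A630012P03Rik and Gm14582 overlap on the opposite strand and Mir717 and Mir6384 on the same strand. Gpc3 had 4.35, 7.62 and 36.6 CPM in cultures 1, 2 and 3 with DMSO, and 2.89, 9.26 and 26.5 CPM at 1 µM. At 1.5 µM Gpc3 had 1.34, 1.34 and 28.6 CPM, and at 3 µM 0.235, 1.03 and 12.1 CPM. Every culture was lowest at 3 µM, and the groups overlapped because culture 3 at 3 µM exceeded cultures 1 and 2 in DMSO. The log2 fold change at 3 µM was −1.85 (SE 1.55, adjusted p 0.325), with the block −2.39 (adjusted p 0.00419), and without culture 3 it was called (adjusted p 0.0134). Gpc3 at 1.5 µM gave −0.64 (SE 1.49, adjusted p 0.779), and with the block −1.30 (adjusted p 0.0634).

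At 1.5 µM, Prelp and Ogn fell and Sdc1 rose. These 3 of 10 stand against 27.3% of all genes called, 15.4% higher and 11.8% lower, and the median log2 fold change was −1.90 over the 6 small leucine-rich genes and 0.06 over the 3 cell-surface genes, beside −0.002 over all genes tested. Groups did not overlap for 4 genes, these 3 and Fmod, and the share of all genes without overlap was not counted. With the block 7 were called, against 46.7% of all genes: all 6 small leucine-rich genes as decreases and Sdc1. Leaving out single libraries or cultures gave from 0 calls to 4, over fits in which 2.98 to 32.4% of all genes were called. The 0 was without culture 2, where 2.98% of all genes were called. At 1 µM edgeR called 0 of 10 genes, against 0.242% of all genes (0.189% higher and 0.0522% lower) and 0 of 10 against 5.61% with the block, and DESeq2 called 1, Prelp, against 3.51% of all genes. At an unadjusted p under 0.05 there were 2, Prelp and Sdc1, which were also the genes whose 1 µM and DMSO values did not overlap. The share over all genes was not counted for either.

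Between neighbouring doses, the step from 1.5 to 3 µM held called changes for Prelp, by −4.69 on the log2 scale (SE 0.355, adjusted p 7.49e-05), and Sdc1, by 1.22 (SE 0.214, adjusted p 0.00284). These 2 of 10 stand beside 29.7% of all genes, and 5 were called with the block, beside 46.7%: Fmod, Prelp, Sdc1, Vcan and Bgn. The Sdc1 call ended without culture 2 (adjusted p 0.0632). The lowest and highest counts over the fits without a library or a culture were 1 and 3, beside 2.25 to 36.2% of all genes. From 1 to 1.5 µM edgeR called 0 of 10, against 5.43% of all genes (4.43% higher and 0.992% lower). At an unadjusted p under 0.05 there were 4 (Fmod, Prelp, Sdc1 and Ogn), and the share of all genes at that threshold was not counted. DESeq2 called 3 in that step (Fmod, Ogn and Prelp), against 10.7% of all genes, and the fit with the block called 5, the small leucine-rich genes other than Dcn, against 21.9% of all genes. Over the whole dose range, the slope per µM was −2.25 for Prelp, −2.19 for Ogn, −1.73 for Fmod and −0.64 for Vcan, and 0.78 for Sdc1 (log2, edgeR adjusted p 1.45e-05, 0.000943, 0.00192, 0.0298 and 3.48e-06). These 5 calls stand against 58.2% of all genes, 30.2% higher and 28% lower, and 8 were called with the block, against 64.5%. The slopes that joined with the block were those of Lum (edgeR adjusted p 0.0100), Bgn (0.000281) and Gpc3 (0.00259), all as decreases. The slope of Vcan was not called without replicate 1 (adjusted p 0.0791) or 2 (0.0903) at 3 µM, DMSO replicate 2 (0.0653) or culture 2 (0.265), and that of Bgn was called without replicate 3 at 3 µM (0.0314).

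Set beside the cell-surface genes culture by culture, the median of the small leucine-rich genes lay lower at each dose. The median within-culture log2 change at 3 µM over the 6 small leucine-rich genes was −3.29, −3.43 and −3.93 in cultures 1, 2 and 3, and over the 3 cell-surface genes −0.91, −0.09 and 0.40. In culture 3 no small leucine-rich gene lay near the median of −3.93. Fmod, Ogn and Prelp were at −8.21, −6.94 and −6.46 there, and Bgn, Lum and Dcn at −1.40, −1.09 and 0.78. Bgn and Lum fell least in culture 3, and Dcn rose there. The difference of the medians was −2.38, −3.34 and −4.33 at 3 µM, −1.69, −2.41 and −1.46 at 1.5 µM, and −0.30, −0.27 and −0.56 at 1 µM. It had 1 sign in 9 of 9 culture and dose pairs, which share their DMSO libraries, and classes of 6 and 3 genes were given no test. In each pair the cell-surface median was the value of Sdc4, a gene not called in any comparison between groups. The difference is therefore that between the small leucine-rich median and Sdc4 alone. Against Vcan alone the small leucine-rich median differed by −0.96, −0.88 and −2.81 at 3 µM. It differed by −1.42, −0.93 and −1.47 at 1.5 µM and by −0.12, 0.42 and −0.73 at 1 µM, so culture 2 had the other sign at 1 µM. Neither class moved as a block: Dcn in culture 3 was above its DMSO, and Gpc3 lay at −3.68, −2.76 and −1.58, among the small leucine-rich genes rather than beside Sdc1. The 6 small leucine-rich genes together took 0.126, 0.261 and 0.461% of all counts with DMSO and 0.0101, 0.0457 and 0.231% at 3 µM. The 3 cell-surface genes took 0.0718, 0.0469 and 0.0517% with DMSO and 0.0920, 0.0894 and 0.166% at 3 µM. In cultures 1 and 2 the cell-surface genes therefore held the larger share at 3 µM, and in culture 3 the small leucine-rich genes still did.

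**Figure D3:**
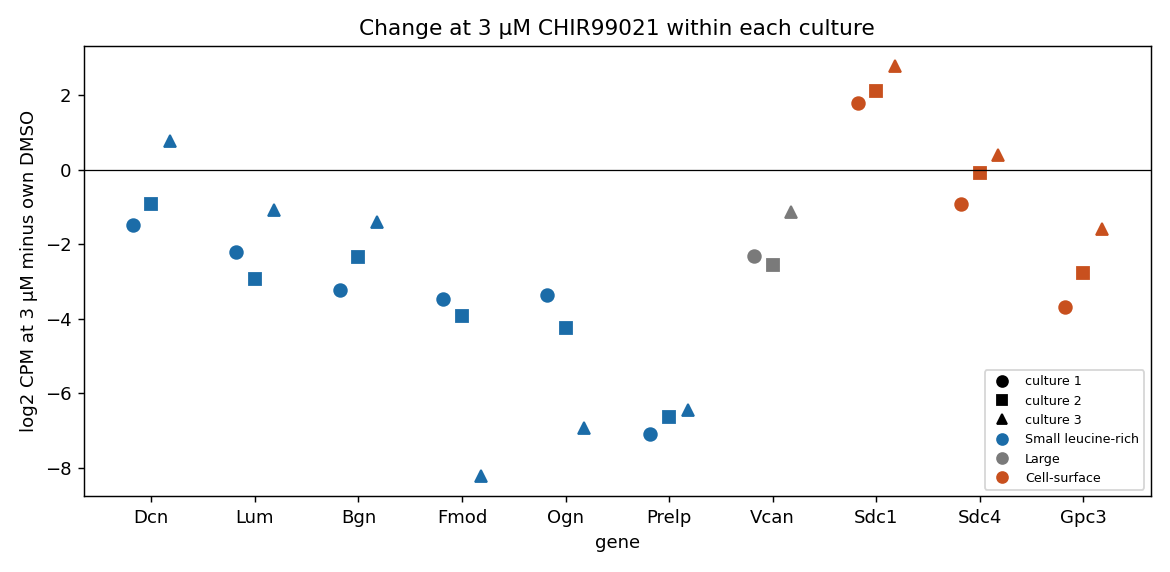
Within-culture log2 change at 3 µM against the culture's own DMSO for each gene (log2 CPM with a prior count of 2). Prelp lay at −7.09 to −6.46 in all cultures and Sdc1 at 1.79 to 2.77, while Dcn and Sdc4 had cultures on both sides of 0.

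Per kb of exon (GENCODE M21 exon union), the order of levels was Bgn, Sdc4, Lum, Prelp, Sdc1, Dcn, Vcan, Fmod, Gpc3 and Ogn in DMSO. Bgn had 342 ± 197 CPM per kb, Sdc4 132 ± 40.2 and Sdc1 54.9 ± 7.43 (SD, n = 3), and the ranges of neighbours in this order overlapped throughout. At 3 µM the order was Sdc1, Sdc4, Bgn, Dcn, Lum, Vcan, Gpc3, Prelp, Fmod and Ogn. Sdc1 stood first with 267 ± 100.1 CPM per kb, above every value of Sdc4 (113 ± 20.4), and all later neighbours overlapped. Prelp moved from the fourth place, at 57.9 ± 16 CPM per kb, to the eighth, at 0.506 ± 0.104.

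The cultures differed in 6 of the 10 genes in a model with group and culture, against 28.8% of all genes. These were Dcn (edgeR adjusted p 0.000233), Lum (0.000285), Bgn (0.000660), Gpc3 (0.00105), Vcan (0.00214) and Ogn (0.0363). In DMSO, culture 3 had the most of Dcn, Lum, Bgn, Gpc3 and Ogn, and culture 2 the most Vcan. Prelp (adjusted p 0.939), Sdc4 (0.384), Sdc1 (0.220) and Fmod (0.105) were not called. Of the 16 fibroblast genes, 15 differed between cultures. A difference between cultures in the dose slope, a test added after the values had been seen, was called by edgeR for 0 of 10 genes and 0% of all genes. Sdc1 and Sdc4 had an unadjusted p under 0.05, and the share of all genes at that threshold was not counted.

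The fibroblast genes were lower in sum at 3 µM in every culture, as were the small leucine-rich genes other than Dcn. The summed level was 12.0, 7.44 and 4.63 times lower at 3 µM than in DMSO in cultures 1, 2 and 3, with none of the 16 at 0 in any group. At 3 µM 5 of 16 were called lower, near the 27.7% of all genes called lower, and none higher. With the block it was 15 of 16, beside 34.8% of all genes called lower. Without the block the count was 8 without replicate 3 at 3 µM, 3 without DMSO replicate 3 and 1 without culture 2. Of all genes, 30, 24.5 and 13% were called lower in these fits. Bgn kept close to this sum: its ratio to the fibroblast sum at 3 µM was 1.29, 1.47 and 1.75 times that of its own DMSO. Lum stood at 2.50, 0.970 and 2.17 times. Dcn stood at 4.30, 3.91 and 7.94 times, as its level went from 0.722, 1.68 and 2.25% of the fibroblast sum in DMSO to 3.10, 6.55 and 17.9% at 3 µM. Prelp went the other way, to 0.083, 0.071 and 0.049 times. Fmod was at 1.02, 0.470 and 0.006 times and Ogn at 0.706, 0.147 and 0 times, on few counts. The part of the fibroblast genes in the members' changes was not tested.

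**Figure D4:**
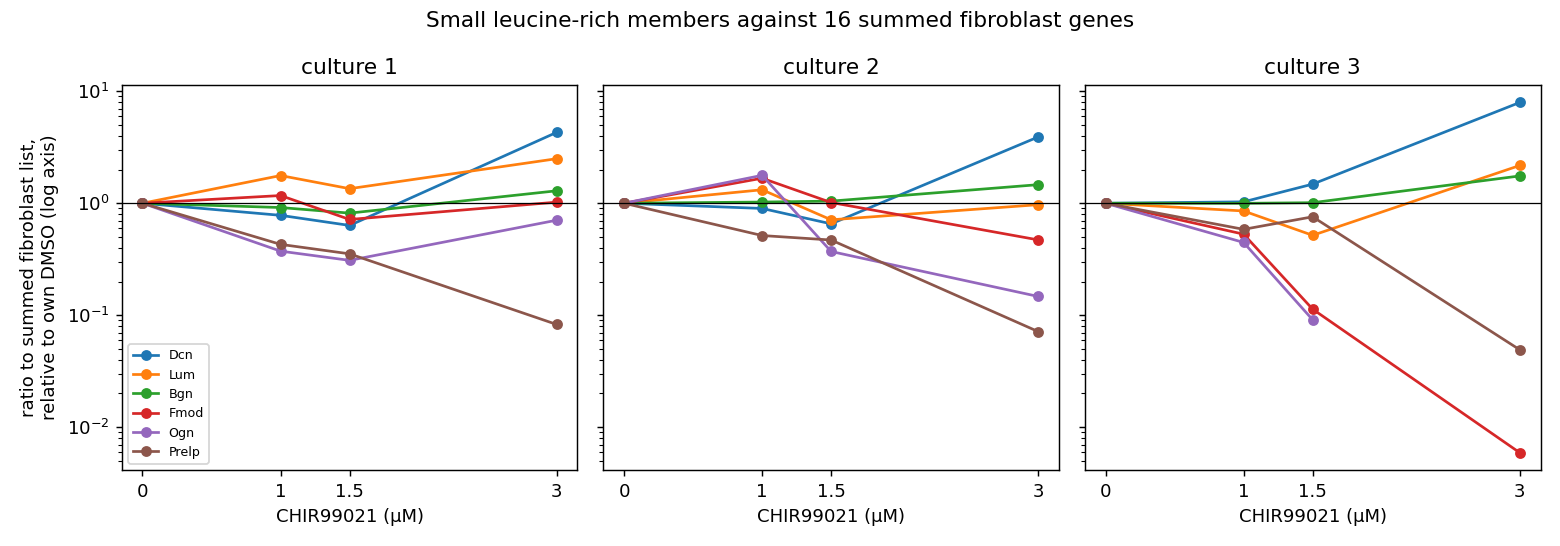
Ratio of each small leucine-rich gene to the sum of 16 fibroblast genes, relative to the culture's own DMSO (log axis), by dose in µM. At 3 µM Dcn lay above 1 and Prelp below 0.1 in all 3 cultures; Ogn in culture 3 is missing at 3 µM because it had 0 counts.

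Other non-epithelial markers were lower at 3 µM too. The marker counts that follow stand beside 27.7% of all genes called lower and 29.9% higher. Without culture 2 they stand beside 13% called lower. The adipocyte sum went from 4674, 8268 and 3059 CPM in DMSO to 120, 227 and 36.1 CPM, with 5 of 5 genes called lower. The endothelial sum went from 233, 498 and 422 CPM to 25.8, 59.1 and 84.1 CPM, with 5 of 6 called lower, and 1 without culture 2. The macrophage sum went from 438, 1518 and 3003 CPM to 155, 235 and 331 CPM, with 4 of 6 called lower, and 0 without culture 2. Pericyte genes went from 488, 614 and 599.7 CPM to 212, 225 and 309 CPM, with 4 of 6 called lower, and 1 without culture 2. Of the 10 basal or myoepithelial genes, 4 were higher (Krt5, Krt14, Krt17 and Trp63) and 6 lower, the contractile genes, and of 12 luminal genes 1 was higher and 6 lower. No marker was at 0 in any group, and their part in the proteoglycan values was not tested.

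The genes beside Dcn, Lum and Ogn are relatives of the same family. Of the 4 with enough counts to test, 3 fell at 3 µM, beside 27.7% of all genes called lower. Aspn, Omd and Ecm2 lie next to Ogn (15.2 kb from Aspn to Omd, 15.5 kb from Omd to Ogn, 11.7 kb from Ecm2 to Aspn), and these are the 3 that fell. Aspn, which binds collagen and TGF-β, had 11.8, 28.8 and 46.5 CPM in DMSO and 0.47, 2.05 and 0.621 CPM at 3 µM, a log2 fold change of −4.76 (SE 0.880, adjusted p 0.00118) that was −5.72 without replicate 2 at 3 µM or culture 2 and −3.95 without culture 3. Ecm2 had 5.47, 8.02 and 9.53 CPM and 0.314, 0.578 and 0.207 CPM (−4.35, SE 0.598, adjusted p 0.000182). The groups of both genes lay apart. Omd had 26 counts in DMSO and 2 at 3 µM in all, and its call (adjusted p 0.0235) ended without replicate 1 (0.0679) or 2 (0.0564) at 3 µM or DMSO replicate 3 (0.148), or without culture 2 (0.124). Kera, 34.5 kb from Lum, had 33 and 4 counts (adjusted p 0.155, with the block 0.0150). Epyc beside Kera and Optc, 2.3 kb from Prelp, had 13 and 9 counts in DMSO and were not tested.

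Of 34 other proteoglycan core proteins, 27 were tested, and at 3 µM 18 fell and 2 rose, beside 27.7% of all genes called lower and 29.9% higher, with a median log2 fold change of −1.91. Without culture 2 the count was 9 of 27, against 31.1% of all genes. The list includes the cluster neighbours given above, so Aspn, Omd and Ecm2 are among the 18 that fell. Cspg4 is in the pericyte list as well. Ncan, a chondroitin sulphate proteoglycan best known from the nervous system, had 9.02, 38.3 and 13.1 CPM in DMSO and 0 counts in all 3 libraries at 3 µM. Against the 0.0700 CPM that 3 counts over that group would give, it was at least 288-fold lower (adjusted p 0.00229). Podn, a small leucine-rich relative, had 16, 29.4 and 91.1 CPM and 0.235, 1.03 and 4.69 CPM (−4.50, SE 1.37, adjusted p 0.0172), a call that ended without replicate 1 (0.0535) or 2 (0.0637) at 3 µM, DMSO replicate 3 (0.0555) or culture 2 (0.144), and a value that was −6.12 without replicate 3 at 3 µM. Ptprz1, a receptor phosphatase that carries chondroitin sulphate, had 55.9, 81.3 and 139 CPM and 155, 155 and 309 CPM (1.16, SE 0.437, adjusted p 0.0424). Its groups did not overlap, and the call ended without replicate 3 at 3 µM (0.169), DMSO replicate 1 (0.126) or 2 (0.114), or replicate 2 at 1 µM (0.0548). It ended as well by library size alone (0.0796), with no filter (0.0813), in the fit of the 2 groups (0.0657) and without culture 1 (0.127) or 2 (0.183). Cspg5 was the other gene called higher, from 0.578, 0.508 and 0.916 CPM to 2.74, 3.72 and 3.8 CPM (2.33, SE 0.307, adjusted p 0.000141), and is named after its values were seen. Among the relatives of the cell-surface members, Sdc2 (−0.74), Sdc3 (−1.57), Gpc2 (−1.33), Gpc4 (−0.72) and Gpc6 (−1.96) were called lower and Gpc1 (0.16) was not called, also named after their values were seen. Without culture 2 the calls of Sdc2 (adjusted p 0.0708), Sdc3 (0.159), Gpc2 (0.260) and Gpc6 (0.0561) ended, and so did those of Sdc3 (0.0562) and Gpc2 (0.0758) without replicate 2 at 3 µM, and (0.0748 and 0.120) without culture 1. The Gpc2 call ended as well without replicate 1 at 3 µM (0.0643) or DMSO replicate 2 (0.0629) and in the fit of the 2 groups (0.0743). Without replicate 3 at 3 µM, Sdc3 was −2.41, Gpc2 −2.20 and Gpc6 −2.72.

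The sugar chains are begun on the core protein by a linker and lengthened by polymerases, and 10 of the 17 genes for these steps fell at 3 µM while 1 rose, with a median of −0.74 and beside 27.7% of all genes called lower and 29.9% higher. The count of 11 was 7 without replicate 2 at 3 µM, DMSO replicate 3 or culture 1, where 48.2, 49.8 and 43.2% of all genes were called. It was 6 without culture 2, where 31.1% of all genes were called. Chpf, a chondroitin polymerising factor, had 35.9, 46.5 and 44.9 CPM in DMSO and 15.8, 20.3 and 16.2 CPM at 3 µM (−1.28, SE 0.157, adjusted p 8.76e-05). Its relative Chpf2 had 64.3, 63.6 and 57 CPM and 22.1, 22.8 and 31.7 CPM (−1.27, SE 0.128, adjusted p 2.64e-05). Every 3 µM value of both genes lay below every DMSO value. Chsy1, a chondroitin synthase, had 22.3, 41.2 and 48.2 CPM and 9.64, 9.95 and 24.9 CPM (−1.32, SE 0.457, adjusted p 0.0298), with overlapping groups. Its call ended without replicate 1 (0.0948) or 2 (0.0989) at 3 µM or DMSO replicate 2 (0.0690) or 3 (0.0887), in the fit of the 2 groups (0.0528) and without culture 1 (0.0551) or 2 (0.280), and its value was −1.94 without replicate 3 at 3 µM. Fam20b, the kinase that phosphorylates the linker's xylose, had 78.2, 78.1 and 75.2 CPM and 97.2, 101 and 86.5 CPM (0.30, SE 0.0700, adjusted p 0.00453). With scaling by library size alone its change was 0.10 (adjusted p 0.218), and its call also ended in the fit of the 2 groups alone (0.0735) and without culture 1 (0.0808) or 2 (0.0946).

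Of 33 genes for sulphation, epimerisation and turnover of the chains, 32 are in the table and 26 were tested. At 3 µM 11 fell and 1 rose, with a median of −0.75, beside 27.7% of all genes called lower and 29.9% higher. The share called in either direction was smaller than the 57.5% of all genes. The 12 calls were 20 with the block, against 68.9% of all genes, and 3 without culture 2, against 31.1%. Chst1, a keratan sulphotransferase, had 38.4, 78.7 and 38.6 CPM in DMSO and 1.18, 4.56 and 14.1 CPM at 3 µM (−2.96, SE 0.678, adjusted p 0.00396, without culture 2 0.122). Chst12, a chondroitin 4-O-sulphotransferase, had 18.8, 32.1 and 30.4 CPM and 2.98, 5.45 and 10.5 CPM (−2.10, SE 0.460, adjusted p 0.00315, without culture 2 0.0999). The groups of these genes did not overlap, and without replicate 3 at 3 µM the values were −4.17 and −2.69. Hs3st1, which adds a rare 3-O-sulphate to heparan sulphate, had 42.3, 18 and 5.12 CPM and 4.55, 2.37 and 6.62 CPM (−2.27, SE 0.760, adjusted p 0.0262), with overlapping groups and a call that ended without DMSO replicate 1 (0.131, at −1.34), replicate 1 (0.0669) or 2 (0.0890) at 3 µM, culture 1 (0.237) or culture 2 (0.208), and in the fit of the 2 groups (0.0514). Glce, the epimerase of heparan sulphate, was the 1 gene called higher, from 52, 51.3 and 57.9 CPM to 65.2, 59.3 and 71.9 CPM (0.28, SE 0.110, adjusted p 0.0468), and that call ended in 8 of the 12 fits that left out 1 library, with adjusted p-values up to 0.163. It was lost too with RLE scaling (0.0547), by library size alone (0.547), with no filter (0.108), in the fit of the 2 groups (0.139) and without culture 1 (0.175), 2 (0.171) or 3 (0.0562).

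The hyaluronan genes make or cut the chain that Vcan binds, or link it to proteoglycans. Of 13 genes 10 were tested, and at 3 µM 5 rose and 2 fell, with a median of 0.87 and beside 29.9% of all genes called higher and 27.7% lower. Without culture 2, 3 were called higher and 0 lower, beside 18.1% and 13% of all genes. Has3, a hyaluronan synthase, had 3.91, 1.93 and 3.5 CPM in DMSO and 205, 142 and 46 CPM at 3 µM (5.36, SE 0.525, adjusted p 2.48e-05), and its mean of 6.09 ± 0.148 CPM at 1.5 µM (SD, n = 3) was not called. Hyal1, a hyaluronidase, had 8.18, 8.33 and 8.29 CPM and 20.7, 16.9 and 30.8 CPM (1.47, SE 0.227, adjusted p 0.000384). In both genes all 3 µM values lay above all DMSO values. Cemip, which takes part in hyaluronan breakdown, had 1.02, 2.74 and 6.19 CPM and 5.41, 6.99 and 33.8 CPM (2.21, SE 0.770, adjusted p 0.0311), with overlapping groups. Without replicate 3 at 3 µM it was 0.89 (adjusted p 0.217), and without DMSO replicate 3 it was 3.05. Its call also ended without DMSO replicate 1 (0.0818) or 2 (0.0876) or culture 1 (0.0619) or 2 (0.151), with no filter (0.0555) and in the fit of the 2 groups (0.0971). The synthase Has2 (1.39) and the hyaluronidase Hyal2 (0.68) were called higher as well, and Hyal3 (−1.13) and the link protein Hapln3 (−3.64) lower, named after their values were seen. The call of Has2 ended without culture 1 (0.72, adjusted p 0.106) or culture 2 (0.0778), and those of Hyal3 (0.0659) and Hapln3 (0.0537) without culture 2. Hapln3 was −4.91 without replicate 3 at 3 µM.

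**Figure D5:**
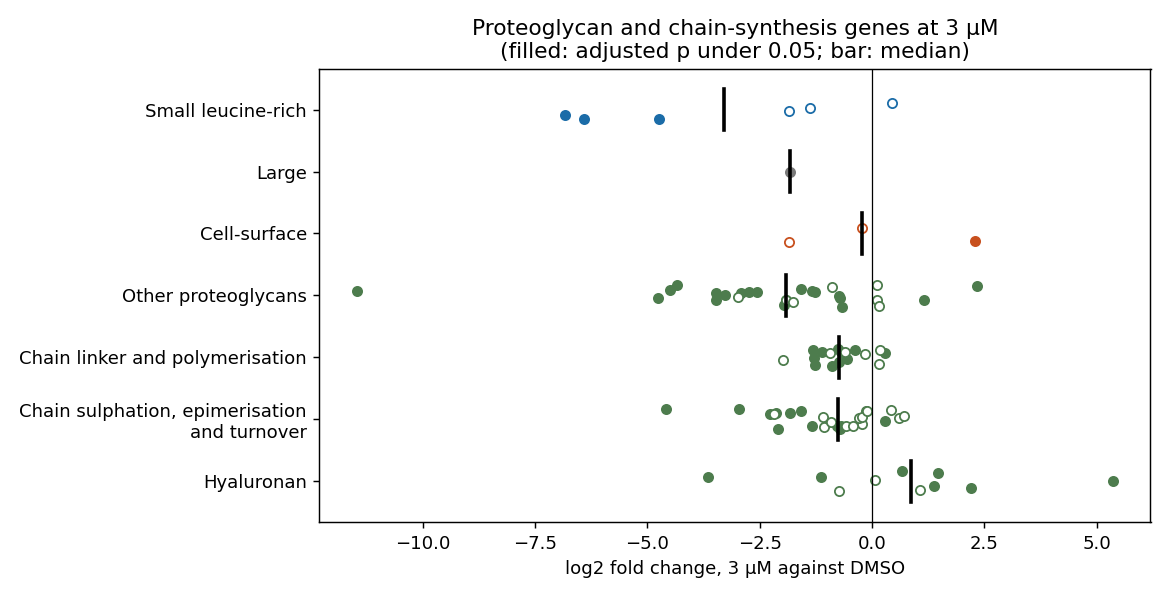
Log2 fold change at 3 µM against DMSO for every tested gene of the 3 proteoglycan classes and 4 further lists, filled where the adjusted p is under 0.05, with a bar at each list's median. The leftmost point is Ncan, a fitted value for a gene with 0 counts at 3 µM that is no bound; the hyaluronan list is the only one shown whose median lies above 0.

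The genes whose pattern over the 12 libraries was closest to a member were searched among 12439 tested genes with a mean of at least 50 counts, by the root mean square difference of centred log2 CPM. For Bgn, whose own values varied by 1.47 (root mean square around its mean), the closest were Col5a2 (0.140), Fstl1 (0.151) and Col5a1 (0.154), of which Col5a1 is also in the fibroblast list. For Sdc1, with 0.856, they included Pvrl1 (0.152) and Ptpn13 (0.209). For Vcan, with 1.1, they were Ggt7 (0.263), Fkbp14 (0.283) and Cacna1c (0.293), less close than the neighbours of Bgn and Sdc1.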

How the data were processed

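The values are whole-number read counts per Ensembl gene, 1 column per library, deposited by the authors with no normalization. The submitters' processing notes name TopHat2 2.1, Bowtie 1.1.0, HTSeq, DESeq2 and the builds GRCm38 and mm10, without role or order. The strand setting and annotation release are not given in the sources used here. The libraries were stranded and polyadenylated, per the labels' protocols. A second deposited table of scaled log2 values was not used.

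Genes were kept with filterByExpr on the 4 groups (15316 of 25210), scaled by TMM and tested in edgeR 4.0.16 (R 4.3.3, glmQLFit robust, two-sided glmQLFTest), fitting group means to all 12 libraries and Benjamini-Hochberg adjustment over all genes tested at 0.05. SE is the log2 fold change divided by the root of F, and intervals are 95%. CPM uses the TMM-scaled library size, and within-culture changes are differences of log2 CPM with a prior count of 2. No molecular identifiers are described, so intervals from counts cover counting error only. Calls were tested on simulated data, with 200 genes changed at 3 µM among 15101 tested. Of those 2-fold higher 44% were called, of those 2-fold lower 48%, of those 4-fold higher 78% and of those 4-fold lower 80%. Of the calls, 3.8% were false. The simulated libraries shared no culture effect, and the changed genes were drawn above a low limit on counts. In the real data 57.5% of genes were called at 3 µM, so these rates need not hold there.

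The culture numbers pair the libraries, because each culture is 1 animal treated 4 ways. Deviations from the group means correlated in all 18 same-number pairs (r from 0.177 to 0.840, 0.505 at the median), while the 36 pairs of different numbers had a median r of −0.212. The main fit of group means leaves this pairing out. The fit with the culture as a block is an alternative that keeps it, and is given where it changed a call of the 10 genes. The others were DESeq2 1.42.0, RLE scaling, library size alone, no filter, only the 2 groups compared, each library left out and, added after the data were seen, each culture left out of all groups. For the comparisons between groups and the slope, none of these others held a culture term.

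The proteoglycans and all lists were chosen with earlier results of these data known. Of each further list, the 3 largest increases and 3 largest decreases called at 3 µM with a mean of at least 50 counts are named, and all neighbours in the gene clusters. Coordinates are those of the deposited table. Of its identifiers 24902 are in GENCODE M21, and 95.2% of these start within 1000 bp. Promoters are RefSeq's. A gene close in pattern to Sdc1 is not reported here.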

Additional observations from a re-analysis of the deposited data

How the results depend on the processing

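The number of the 10 genes called kept within 1.5 times its value under RLE scaling, library size alone and no filter in every comparison. With the culture as a block it was 7 at 1.5 µM, 8 at 3 µM, 5 from 1 to 1.5 µM, 5 from 1.5 to 3 µM and 8 for the slope, and unchanged at 0 at 1 µM. DESeq2 called 1 gene at 1 µM and 3 from 1 to 1.5 µM, and the fit of the 2 groups alone 1 from 1 to 1.5 µM. Over the fits without a library or a culture the counts ran from 0 to 1 at 1 µM, 0 to 4 at 1.5 µM, 4 to 7 at 3 µM, 0 to 1 from 1 to 1.5 µM, 1 to 3 from 1.5 to 3 µM, 4 to 7 for the slope and 4 to 8 between cultures, and were 0 for a slope difference. The share of all genes called moved as well over these fits. It ran from 0 to 0.773% at 1 µM, 2.98 to 32.4% at 1.5 µM and 31.1 to 59.8% at 3 µM. From 1 to 1.5 µM it ran from 0 to 9.61%, and from 1.5 to 3 µM from 2.25 to 36.2%. For the slope it was 37.6 to 57.7%, and between cultures 7.44 to 37.3%. The causes were not tested.

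None of the values that changed sign was called. With the block these were Lum at 1 µM (0.22), Dcn at 3 µM (−0.54), Lum from 1.5 to 3 µM (−0.30) and the slope of Dcn (−0.19). Fmod at 1 µM was 0.0027 by library size alone. Sdc4 from 1 to 1.5 µM was −0.022 in DESeq2 and with RLE scaling, −0.0015 by library size alone and −0.013 in the fit of the 2 groups. The fits that leave out a library or a culture, given next, held no block by culture. Over the fits that leave out 1 library, in the comparisons where a sign turned, at 1 µM the log2 fold changes ran from −0.68 to 0.37 for Bgn, −1.54 to 1.09 for Dcn, −0.67 to 0.27 for Fmod, −1.41 to 1.09 for Gpc3, −1.07 to 1.24 for Lum, −1.13 to 0.43 for Ogn, −0.12 to 0.33 for Sdc4 and −0.44 to 0.23 for Vcan. At 1.5 µM they ran from −3.29 to 0.73 for Dcn, −3.59 to 0.77 for Gpc3 and −0.14 to 0.33 for Sdc4. At 3 µM they ran from −2.20 to 1.60 for Dcn and −0.42 to 0.0495 for Sdc4. From 1 to 1.5 µM they ran from −3.21 to 1.11 for Dcn, −3.25 to 0.78 for Gpc3, −0.16 to 0.13 for Sdc4 and −0.87 to 0.025 for Vcan. From 1.5 to 3 µM they ran from −2.08 to 0.17 for Bgn, −1.76 to 3.73 for Dcn, −3.98 to 1.74 for Gpc3 and −2.54 to 1.81 for Lum. For the slope they ran from −0.72 to 0.45 for Dcn. Without culture 3 in all groups, the values that turned were 0.45 for Fmod, 0.047 for Gpc3, 0.31 for Lum and 0.042 for Ogn at 1 µM, −0.99 for Dcn at 3 µM, −0.038 for Sdc4 from 1 to 1.5 µM, −1.02 for Lum from 1.5 to 3 µM and −0.36 for the slope of Dcn. Without culture 2 they were −0.076 for Sdc4 and 0.053 for Vcan at 1 µM, −0.081 for Sdc4 at 1.5 µM, and 0.031 for Gpc3 and −0.0045 for Sdc4 from 1 to 1.5 µM. Without culture 1 they were 0.17 for Sdc4 at 3 µM and 0.048 for its slope.

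With 3 cultures per group, the differences between animals in Dcn, Lum, Bgn, Gpc3 and Vcan limited the precision of the fit without the block. Their SE at 3 µM was 1.72, 1.60, 0.984, 1.55 and 0.672, against 0.424, 0.415, 0.302, 0.556 and 0.256 with the block. Ogn, Omd and Kera rest on few counts at 3 µM.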
